A study of Mus musculus with 34 samples.

Results

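The 9 genes described here are genes of epithelia and trophoblast: the keratins Krt7, Krt8, Krt18 and Krt19, the cornified envelope genes Sprr2a2 and Sprr2a3, and the trophoblast regulators and surface marker Gata3, Elf5 and Plet1. They were chosen by symbol, with earlier results of these data known, and all 9 of 9 were found among the 37145 genes of the culture tables and the 46785 genes of the section tables. Plet1 is listed under its older symbol 1600029D21Rik in the culture tables and was matched by its gene ID. The study asks what the long non-coding RNA Evx1as does in the patterning of the mouse embryo.

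The culture libraries come from mouse embryonic stem cells grown for 4 days after withdrawal of LIF, the cytokine that holds such cells undifferentiated. There are 3 libraries labelled 4x polyA KI, a knock-in of polyadenylation signals, and 3 from wild-type cells of the line CJ9, all with the strain label 129S1/SVImJ. The labels give neither the insertion site nor the number of knock-in clones, so effects of the knock-in and of a clone cannot be told apart. The sections are pieces captured by laser from frozen slices of C57/B6 embryos, taken at embryonic day 7, whose RNA was amplified by the Geo-seq method for few cells. Each carries a layer number, and the labels do not say from which end of the embryo layers are counted. Primitive streak sections number 5 from Evx1as-/- (homozygous) and 6 from Evx1as+/- (heterozygous) embryos, mesoderm sections 5 and 3, and anterior epiblast sections 1 and 1. No embryo without a mutant allele is among them. The labels do not tie sections to embryos, so sections of a genotype may share an embryo. Another 3 sections whose title and region label disagree went into no comparison. The 4 posterior embryo pieces were not analysed here.

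Keratins build the intermediate filaments of epithelial cells, and each filament pairs a type II keratin such as KRT7 or KRT8 with a type I keratin such as KRT18 or KRT19. KRT8 and KRT18 are the first keratins of the mouse embryo and mark trophectoderm, the outer layer that becomes trophoblast. Small proline-rich proteins (SPRR) are substrates of transglutaminases in the cornified envelope, the cross-linked shell of the outermost cells of stratified epithelia. GATA3 and ELF5 are transcription factors of the trophoblast lineage, ELF5 acting in trophoblast stem cells, and PLET1 is a surface protein of extraembryonic ectoderm and of the node. The node lies at the distal end of the streak.

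The promoters of 5 members are shown: Sprr2a2, Sprr2a3 and Gata3, whose levels differed most in the cultures, and the filament pair Krt8 and Krt18. Krt7, Krt8 and Krt18 lie on chromosome 15, the Sprr2a copies on chromosome 3 and Gata3 on chromosome 2. The sequences are from RefSeq (GRCm38.p6), run from 250 bases before to 50 bases after the gene start, and read 5′ to 3′ on the gene's strand. Capitals mark matches to the motifs searched.
Krt8 (chr15:102004293-102004592, - strand): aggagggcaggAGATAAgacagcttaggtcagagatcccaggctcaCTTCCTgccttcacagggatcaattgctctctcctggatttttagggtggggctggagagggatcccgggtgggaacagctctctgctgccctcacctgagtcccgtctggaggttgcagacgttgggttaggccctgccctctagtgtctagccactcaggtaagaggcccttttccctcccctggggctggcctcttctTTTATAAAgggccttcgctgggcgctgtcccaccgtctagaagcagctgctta
Krt18 (chr15:102027966-102028265, + strand): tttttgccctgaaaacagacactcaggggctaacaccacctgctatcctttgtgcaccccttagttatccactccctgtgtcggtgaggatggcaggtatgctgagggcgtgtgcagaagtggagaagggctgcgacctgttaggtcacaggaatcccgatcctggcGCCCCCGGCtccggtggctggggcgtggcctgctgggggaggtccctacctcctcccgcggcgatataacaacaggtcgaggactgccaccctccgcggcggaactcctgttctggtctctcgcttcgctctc
Gata3 (chr2:9878551-9878850, - strand): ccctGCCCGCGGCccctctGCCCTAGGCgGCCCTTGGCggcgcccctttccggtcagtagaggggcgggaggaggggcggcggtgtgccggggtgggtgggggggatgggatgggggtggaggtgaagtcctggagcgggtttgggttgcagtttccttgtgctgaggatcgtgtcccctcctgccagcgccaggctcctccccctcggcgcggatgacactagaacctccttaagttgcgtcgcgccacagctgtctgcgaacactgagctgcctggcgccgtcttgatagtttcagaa
Sprr2a2 (chr3:92250397-92250696, + strand): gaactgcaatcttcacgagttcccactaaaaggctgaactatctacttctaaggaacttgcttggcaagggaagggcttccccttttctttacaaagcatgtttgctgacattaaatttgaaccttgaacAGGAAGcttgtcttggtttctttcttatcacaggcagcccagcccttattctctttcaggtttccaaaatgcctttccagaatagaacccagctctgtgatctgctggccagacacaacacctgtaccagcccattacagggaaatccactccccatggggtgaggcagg
Sprr2a3 (chr3:92285054-92285353, + strand): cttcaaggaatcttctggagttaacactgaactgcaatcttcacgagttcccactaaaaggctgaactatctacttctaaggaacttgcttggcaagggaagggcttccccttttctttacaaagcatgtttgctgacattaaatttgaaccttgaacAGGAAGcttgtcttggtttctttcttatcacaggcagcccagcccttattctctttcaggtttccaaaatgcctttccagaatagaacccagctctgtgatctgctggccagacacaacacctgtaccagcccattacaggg
The letters searched on both strands were TATAAA for the core promoter box, TGANTCA for the AP-1 motif, GCCNNNGGC for the TFAP2 motif, AGATAA for the motif of GATA factors and AGGAAG for that of ETS factors. Of 32851 promoters of this length, 13.6% held the core box letters, 7.81% AP-1, 16.6% TFAP2, 11.2% GATA and 35.4% ETS. Gata3 held 3 TFAP2 matches, starting at positions 5, 20 and 30 of the 300 bases, and Krt18 held 1, at position 168. Krt8 held the GATA letters, the ETS letters on the opposite strand, and the core box letters on both strands in matches that overlap at the start. Both Sprr2a promoters held the ETS letters. A promoter entry was found for 8 of the 9 members.

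The Sprr2a genes are near copies. Their promoters share a stretch of 272 identical bases, and the promoter of the neighbouring copy Sprr2a1, which is no member, is identical to that of Sprr2a2 over all 300 bases. Of the 50-base windows of their annotated transcripts, 96.5% of those of Sprr2a2 and 61.1% of those of Sprr2a3 also occur in another of these copies. The windows were compared only among the members and Sprr2a1. The other members shared none within this set, and matches to genes outside it were not searched. How reads that match several copies were shared out is not given in the sources used here, so the level of each copy is uncertain and the copies are not independent. In the section tables (mm10) Sprr2a2 spans 92215920 to 92256724 on chromosome 3, Krt8 spans 101996711 to 102004342 and Krt18 spans 102028216 to 102032026 on chromosome 15. The culture tables place genes by other coordinates.

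All values are FPKM (fragments scaled to transcript length and to the mapped fragments of the library), a level per length. The tables hold no read counts, so depth is unknown and no counting intervals are given. Summed FPKM ran from 502990 to 582184 in the culture libraries and from 132929 to 376860 in the sections, and 12758 to 13073 and 6806 to 10959 genes reached 1 FPKM. The targeted RNA, Evx1as, was at 0.0674 to 0.137 FPKM in knock-in cultures and 3.94 to 5.99 FPKM in wild-type cultures. It was at 0 to 0.159 FPKM in the 11 homozygous sections, 9 of them at 0, and at 0 to 4.57 FPKM in the 10 heterozygous sections, 2 of them at 0. T, a gene of the streak and nascent mesoderm, averaged 9.43 FPKM in mesoderm and 157 FPKM in streak sections, which sets the 2 regions apart as their labels do.

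In the cultures, 4 keratins, both Sprr2a genes and Gata3 were all lower in the knock-in line, while Plet1 was at about the same level in both lines and Elf5 was close to 0. Krt8 was at 128, 97.5 and 122 FPKM in knock-in cultures and at 469.9, 618 and 359 FPKM in wild-type cultures. Its type I partner Krt18 was at 97.0, 84.4 and 74.5 FPKM in knock-in cultures and at 386, 482 and 234 FPKM in wild-type cultures. For each gene every knock-in library lay below every wild-type library.

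The ratio of knock-in to wild-type means was 0.240 for Krt8 and 0.232 for Krt18. The pair stayed close to each other within a library: the Krt8 level was 1.16 to 1.63 times the Krt18 level in knock-in cultures and 1.22 to 1.54 times in wild-type cultures. Krt19, a type I keratin that can also pair with KRT8, averaged 22.5 ± 2.99 FPKM in knock-in cultures and 176 ± 18.3 FPKM in wild-type cultures (SD, n = 3 each), a ratio of 0.128. Krt7, the other type II keratin, was the least abundant keratin of the 4, with 1.91, 0.714 and 0.906 FPKM in knock-in cultures and 20.3, 24.7 and 7.15 FPKM in wild-type cultures.

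The cornified envelope genes were below 1 FPKM in every knock-in library. Sprr2a2 was at 0.311, 0.395 and 0.170 FPKM in knock-in cultures and at 78.5, 114 and 48.5 FPKM in wild-type cultures. Sprr2a3 was at 0.368, 0.429 and 0.234 FPKM in knock-in cultures and at 24.6, 25.2 and 17.0 FPKM in wild-type cultures. The lower bound of the authors' deposited interval was 0 for both genes in all 3 knock-in libraries. Sprr2a1 was listed at 0 in all 3 knock-in libraries and at 14.3, 17.6 and 8.23 FPKM in the wild-type ones. Among wild-type libraries the third was lowest for Krt7, Krt8, Krt18, Sprr2a2, Sprr2a3 and Gata3.

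The 3 trophoblast members differed from each other. Gata3 was at 0.00743, 0.402 and 1.17 FPKM in knock-in cultures and at 30.6, 38.0 and 15.2 FPKM in wild-type cultures, with no overlap. Plet1 was at 4.48, 2.12 and 4.79 FPKM in knock-in cultures and at 3.76, 5.66 and 3.37 FPKM in wild-type cultures, and the groups overlapped. Elf5 was listed at 0 in all knock-in libraries and at 0.0651, 0 and 0.287 FPKM in wild-type ones.

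**Figure D1:**
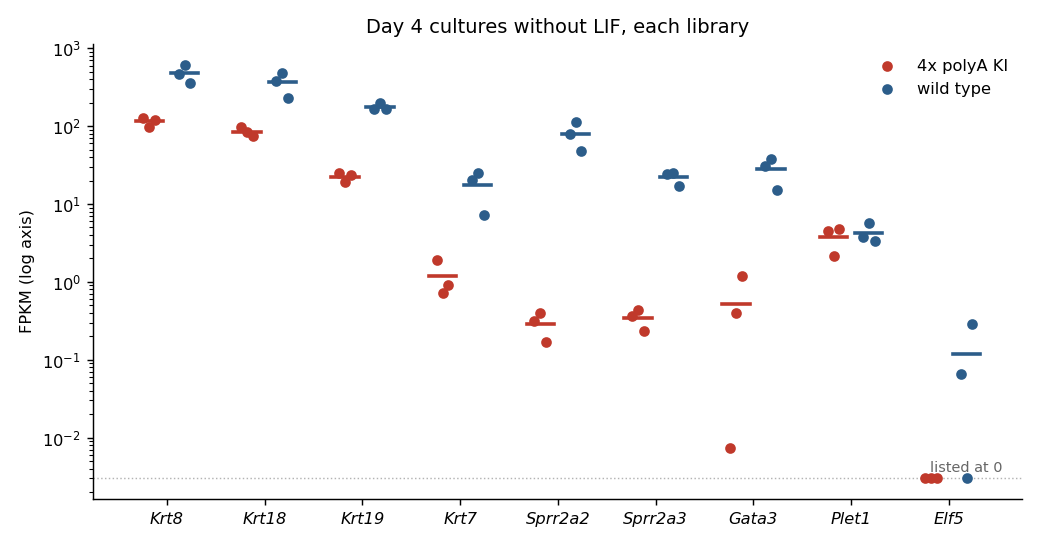
FPKM of the 9 genes in each day 4 culture library on a log axis, with 4x polyA KI libraries in red left of wild-type libraries in blue and the group mean as a bar. Libraries listed at 0 sit on the dotted line; the knock-in points lie below all wild-type points for 7 genes, overlap them for Plet1, and are at 0 with 1 wild-type library for Elf5.

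On the log2(FPKM + 1) scale, which understates the change of low genes, the difference between knock-in and wild-type cultures was -2.02 ± 0.20 for Krt8, -2.04 ± 0.25 for Krt18, -2.92 ± 0.14 for Krt19 and -2.96 ± 0.43 for Krt7 (± SE from limma, n = 3 each). It was -5.90 ± 0.29 for Sprr2a2, -4.10 ± 0.19 for Sprr2a3, -4.22 ± 0.38 for Gata3 and -0.16 ± 0.28 for Plet1. A filter of a mean of at least 1 FPKM left 8 members, and 7 of the 8 were lower past an adjusted p of 0.05, where 32.4% of all genes tested passed in either direction, 16.2% being lower and 16.2% higher. Sprr2a2, Sprr2a3 and Gata3, with knock-in means of 0.292, 0.344 and 0.527 FPKM, passed the filter only through their wild-type values. They could therefore only be called lower, and the Sprr2a copies are not independent. The groups did not overlap for the same 7, against 48.4% of all genes in either direction and 24% with lower knock-in values. These values count among those that may have led to the choice of the 9 genes, so they are a description and carry no test of their own. The culture genes of chromosome 15 had a median difference of 0.49, and set against it the differences of Krt7, Krt8 and Krt18 were -3.45, -2.52 and -2.53. In the libraries that carry the lane tag 3, Krt8 was at 97.5 and 122 FPKM in knock-in and 618 FPKM in wild-type culture.

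Other genes of the same structures were compared through gene lists, with p-values from limma adjusted by Benjamini-Hochberg over all 13133 genes tested. Among 23 other keratins only 3 reached the filter, and 1 of them fell, the basal keratin Krt14, at 0.162 ± 0.147 FPKM in knock-in and 3.32 ± 0.409 FPKM in wild-type cultures (adjusted p = 0.00069). Genes of any list that averaged under 1 FPKM in knock-in cultures, Krt14 among them, passed the filter only through their wild-type values. They could therefore only be called lower. Krt10 and Krt17 had log2 differences of 0.07 and -0.29 and did not pass.

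Of the cornified envelope list, 7 genes were tested, 4 fell and 3 did not pass. They were Sprr2a1, the transglutaminase Tgm1 that cross-links the envelope (1.91 ± 0.572 FPKM in knock-in, 17.6 ± 3.86 FPKM in wild type, adjusted p = 0.000298), Tchh (log2 change -1.28) and the plakin Ppl (-0.73). Sprr2a1 is a near copy of 2 members, was at 0 in knock-in cultures and could only be called lower. Lor, the major envelope protein of epidermis, had a difference of -0.47 and did not pass. The list's median was -0.73, against 0.02 over all genes.

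Of 22 tested partners of keratins and epithelial linkers, 13 fell, 0 rose and 9 did not pass, with a median of -0.78. Dsp, which ties keratin filaments to desmosomes, was at 25.4 ± 1.70 FPKM in knock-in and 76.4 ± 5.25 FPKM in wild-type cultures (adjusted p = 0.000216). The epithelial transcription factor Elf3 fell by 1.58 on the log2 scale, the tight junction gene Cldn4 by 1.29 and the desmosomal cadherin Dsc2 by 1.28. The median of a list is not set apart from that of all genes by any test here.

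Of 25 tested trophoblast regulators, 16 fell, 4 rose and 5 did not pass, with a median of -0.87. Cdx2, the regulator that founds trophectoderm and is also used in posterior mesoderm, was at 0.333 ± 0.349 FPKM in knock-in and 19.6 ± 8.48 FPKM in wild-type cultures (log2 change -3.87, adjusted p = 0.000443). Msx2 (-3.85), Tfap2a (-3.63) and Bmp4 (-2.75) followed. Cdx2 and Tfap2a were among the genes that passed the filter only through their wild-type values and could only be called lower. The 4 that rose, named after their values were seen, were Satb1 (1.48), Esx1 (1.22), Esrrb (1.07) and Zfp42 (0.44). Eomes, a T-box gene of trophoblast and streak that was also singled out after its value was seen, averaged 37.1 ± 4.84 FPKM in knock-in and 35.6 ± 15.4 FPKM in wild-type cultures and did not pass.

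Of 11 tested products of differentiated trophoblast and placenta, 5 fell, 2 rose and 4 did not pass, with a median of -0.04. Hand1, Wnt7b, Peg10 and Pdgfa fell by 2.50, 2.48, 2.13 and 1.90 on the log2 scale. Nrk fell by 1.87, and Ly6e and Phlda2 rose by 1.21 and 0.56; these 3 were named after their values were seen. The prolactin-family genes of the list and Tpbpa and Tpbpb, products of giant cells and spongiotrophoblast, were listed at 0 in all 6 libraries. Elf3, Hand1, Bmp4 and Ppl stand in more than 1 list, and Krt10, Krt14 and Lor return in the keratinocyte list below.

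**Figure D2:**
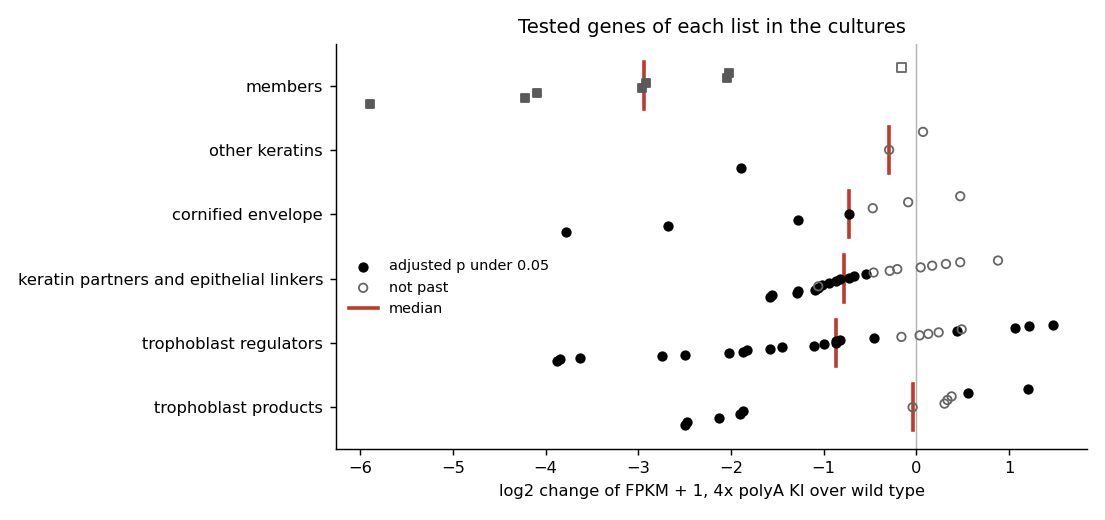
Log2 change of FPKM + 1, 4x polyA KI over wild-type cultures, for the tested genes of each list, 1 point a gene, filled where the adjusted p is under 0.05, with the list median in red. The medians lie at -0.29 for the other keratins, -0.73 for the cornified envelope, -0.78 for the linkers, -0.87 for trophoblast regulators and -0.04 for trophoblast products; the members (squares) were chosen with such values known.

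Markers of other cell types moved with the same contrast. The 12 measured markers of extraembryonic mesoderm summed to 175 to 219.7 FPKM in knock-in and 656 to 722 FPKM in wild-type cultures, with 6 of 7 tested lower, 1 higher and Vim the most abundant. The visceral endoderm list summed to 18.0 to 28.5 FPKM in knock-in and 99.5 to 163 FPKM in wild-type cultures, all 3 tested genes being lower (Cited1, Lrp2, Dab2), while its defining members Afp and Ttr were at 0 in all 6 libraries. Parietal endoderm markers summed to 177 to 204 FPKM in knock-in and 362 to 453 FPKM in wild-type cultures, with 5 of 7 tested lower. Decidua markers summed to 14.1 to 23.3 FPKM in knock-in and 106 to 162 FPKM in wild-type cultures, with 3 of 4 lower and 1 higher. Cryab and Wnt4 were the most abundant of them in wild-type cultures, while the list's prolactin-family genes Prl8a2 and Prl3c1 were at 0 in all 6 libraries. Fibroblast markers summed to 26.1 to 29.9 FPKM in knock-in and 37.9 to 91.1 FPKM in wild-type cultures, with 3 of 5 lower and 1 higher. Keratinocyte markers summed to 6.23 to 8.98 FPKM in knock-in and 11.0 to 15.2 FPKM in wild-type cultures. Of these, 1 of 3 tested was lower, the Krt14 already named among the other keratins. The part of all these markers in the values of the 9 genes was not tested. In these bulk samples fewer cells of a type and less RNA per cell cannot be told apart.

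In the embryo sections the keratins were highest in the streak section numbered layer 1, in both genotypes. Krt8 was at 53.2 FPKM in homozygous layer 1, against 2.27, 2.86, 5.04 and 7.45 FPKM in homozygous layers 5, 7, 9 and 11. In heterozygous streak it was at 79.5 FPKM in layer 1, against 7.18, 7.69, 2.45, 4.90 and 12.7 FPKM in layers 3, 5, 7, 9 and 11. Layer 1 was 7.14 times the next highest streak section in homozygous and 6.28 times in heterozygous embryos.

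Visceral endoderm markers were also high in layer 1, and more parietal endoderm markers reached 1 FPKM there. The visceral endoderm markers summed to 393 FPKM in homozygous layer 1, below homozygous streak layer 11 and mesoderm layer 9 alone, and to 175 FPKM in heterozygous layer 1, the highest sum of the assigned heterozygous sections. Of the 12 parietal endoderm markers, 11 reached 1 FPKM in homozygous and 12 in heterozygous layer 1, against 3 to 6 in the other streak sections of both genotypes. In mesoderm 4 to 10 did in homozygous and 4 to 6 in heterozygous sections. Their sums were high in every streak section, at 81.2 to 129 FPKM in homozygous and 82.7 to 154 FPKM in heterozygous streak. Fst alone was at 30.4 to 94.9 FPKM in homozygous and 20.0 to 135 FPKM in heterozygous streak, so these sums do not measure parietal endoderm. Thbd, Plat and Lama1 of the list did not pass 3.78, 4.46 and 2.26 FPKM in any streak section. The layer 1 sections also had the most genes at 1 FPKM of the assigned sections, 10559 in homozygous and 10959 in heterozygous streak. The part of these markers in the keratin values was not tested.

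Krt18 was at 40.6 FPKM in homozygous layer 1, against 0.396, 1.29, 6.42 and 18.3 FPKM in layers 5, 7, 9 and 11. In heterozygous streak it was at 58.7 FPKM in layer 1, against 2.83, 3.50, 1.03, 1.32 and 0 FPKM in layers 3, 5, 7, 9 and 11. Layer 11 thus held 18.3 FPKM in the homozygous section and none in the heterozygous one. Krt18 was at 0 in that heterozygous section although Krt8 was at 12.7 FPKM there, and the section had the fewest genes at 1 FPKM of all sections, 6806.

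Krt19 and Krt7 were low outside layer 1. Krt19 was at 5.06 FPKM in homozygous and 10.3 FPKM in heterozygous layer 1, and at 0 to 0.282 and 0 to 2.29 FPKM in the other homozygous and heterozygous streak layers. Krt7 was at 3.80 FPKM in homozygous and 2.20 FPKM in heterozygous layer 1, and no higher than 0.616 and 0.392 FPKM in the other streak layers of the same genotypes. Plet1 shared the peak, with 4.16 FPKM in homozygous and 21.3 FPKM in heterozygous layer 1, where the other heterozygous streak layers were at 0 to 0.458 FPKM. Homozygous layer 11 was at 2.17 FPKM and the other homozygous layers at 0.

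**Figure D3:**
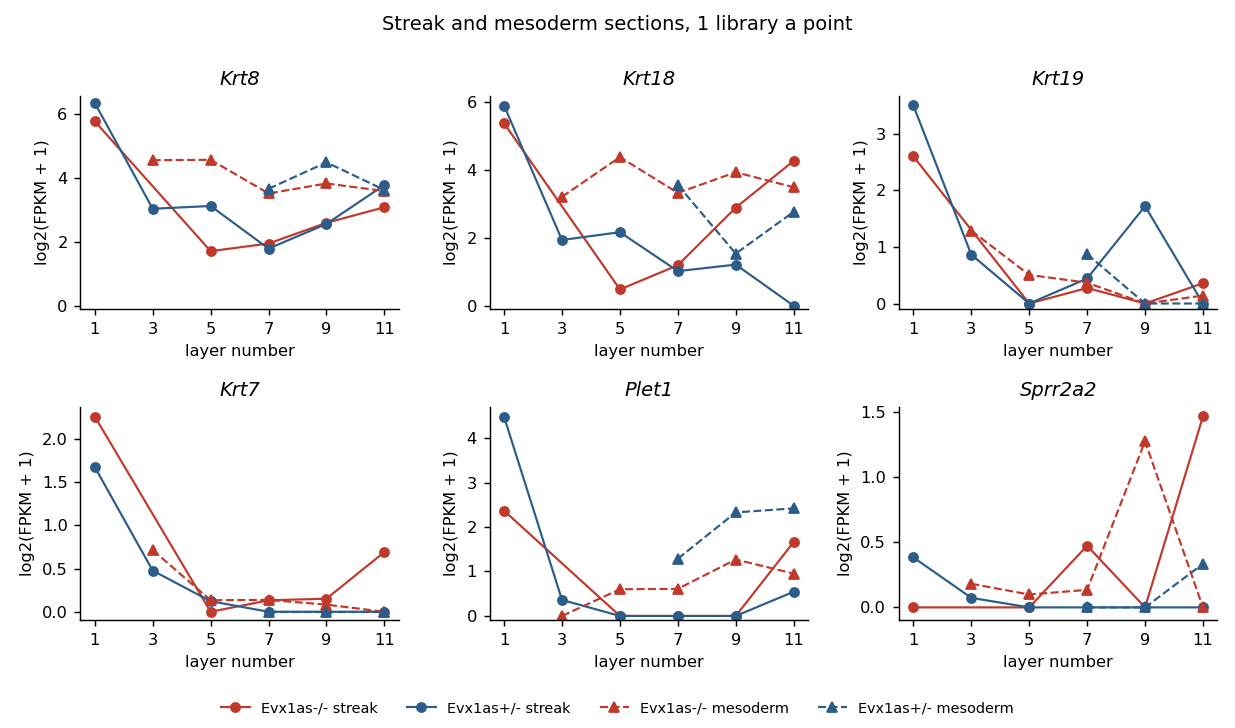
Level on the log2(FPKM + 1) scale of 6 of the genes by layer number, 1 section a point, for homozygous (red) and heterozygous (blue) streak (circles, solid) and mesoderm (triangles, dashed). Krt8, Krt19, Krt7 and Plet1 peak in layer 1 of both genotypes, as does Krt18, which is also at 18.3 FPKM in homozygous layer 11; Sprr2a2 stays under 2 FPKM.

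Of the rest, Gata3 was at 0.492 FPKM in homozygous and 0.0491 FPKM in heterozygous layer 1, and over all streak and mesoderm sections it did not pass 0.652 FPKM. Elf5 was listed at 0 in all 19 streak and mesoderm sections. Sprr2a2 was at 1.77 FPKM and Sprr2a3 at 2.31 FPKM in homozygous streak layer 11, and Sprr2a2 at 1.42 FPKM in homozygous mesoderm layer 9. No other of the 19 sections held more than 0.389 FPKM of Sprr2a2 or 0.0519 FPKM of Sprr2a3. The same 2 sections had the highest sums of visceral endoderm markers, 1323 and 854 FPKM, against 5.13 to 393 FPKM in the other 17. Sprr2a3 was at 0 in that mesoderm section, and both genes were at 0 in homozygous streak layer 1, whose sum was 393 FPKM. Of the 3 sections outside the comparisons, with sums of 3.34 to 50.2 FPKM, 1 held 2.34 FPKM of Sprr2a3. The part of these markers in the Sprr2a values was not tested.

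With layer as a number, across streak and mesoderm sections of both genotypes, the slope was -0.20 ± 0.07 log2 units per layer number for Krt8, -0.21 ± 0.09 for Krt18, -0.20 ± 0.05 for Krt19 and -0.09 ± 0.08 for Plet1 (± SE, n = 19). None of these 4, the members that passed the filter, was past an adjusted p of 0.05 (limma, adjusted p = 0.182, 0.285, 0.0874 and 0.66), where 1.05% of all 9527 genes were called. An unadjusted p under 0.05 was found for 3 of them, against 1385 of the 9527 genes. Layer values count among those that may have led to the choice of the genes, so these slopes are only a description. Sections may share an embryo, so these p-values are too small. Without the layer 1 sections the slopes of Krt8 and Krt18 were -0.0055 and 0.015. Krt19 and Plet1 did not reach the filter without those sections.

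The genes whose levels followed each member most closely over the 21 assigned sections were chosen by Pearson's r on the log2 scale among genes averaging at least 5 FPKM. Krt8 was closest to Cfc1, the NODAL co-receptor gene (r = 0.81, and 0.69 without layer 1), Slc16a1 and Serpinh1. Krt18 was closest to the matrix gene Sparc (r = 0.85, and 0.74 without layer 1), Srgn and Slc16a1. Krt19 was closest to Noto, a homeobox gene of the node (r = 0.87), Cfap126 and Tppp3. For Krt19 the likeness rested on layer 1: without those 2 sections r with Noto was 0.21. Noto averaged 166 FPKM in layer 1 and 0.146 FPKM in the other sections.

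Plet1 was closest to Dynll1 (r = 0.75, and 0.43 without layer 1), Tppp3 (0.74, and 0.022 without layer 1) and Sparc (0.74, and 0.52 without layer 1), so that its likeness to Tppp3 rested on layer 1 as well. Among the members, Krt8 and Krt18 had r = 0.67 over the 21 sections and 0.43 over the 19 without layer 1. The Krt8 level was 0.177 to 11.2 times the Krt18 level in the assigned sections where both were present, a wider span than in culture. These r values share the libraries and their unknown depth, and describe these sections only.

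Mesoderm held more Krt8 than streak of the same layer and genotype. In homozygous embryos Krt8 was at 22.6, 10.4, 13.1 and 11.0 FPKM in mesoderm layers 5, 7, 9 and 11, against 2.27, 2.86, 5.04 and 7.45 FPKM in streak. In heterozygous embryos it was at 11.6, 21.3 and 11.3 FPKM in mesoderm layers 7, 9 and 11, against 2.45, 4.90 and 12.7 FPKM in streak. Mesoderm was the higher in 6 of 7 pairs, layer 11 of heterozygous embryos being the exception.

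Krt8 rose by 1.41 ± 0.27 on the log2 scale in mesoderm against streak, in a fit with genotype, region and layer (± SE, 8 mesoderm and 11 streak sections, limma, adjusted p = 0.00725), where 14.5% of genes were called, 0.63% higher and 13.9% lower in mesoderm. It was the only 1 of 4 tested members called, and p-values over sections that may share an embryo are too small. The median of all genes was -0.39 in this fit. After median-ratio scaling of the libraries Krt8 was still called, and the calls over all genes came to 75 higher and 106 lower, against 60 higher and 1326 lower without scaling. With the layer term left out the difference was 0.76 and did not pass (adjusted p = 0.274). Means not matched by layer were 15.5 ± 5.56 FPKM in mesoderm and 16.8 ± 25.4 FPKM in streak. Without both layer 1 sections and without the layer term it was 1.39 (adjusted p = 0.00769), an alternative chosen after the data were seen.

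Krt18 was at 19.8, 9.03, 14.3 and 10.3 FPKM in homozygous mesoderm layers 5, 7, 9 and 11, against 0.396, 1.29, 6.42 and 18.3 FPKM in streak. In heterozygous embryos it was at 10.8, 1.90 and 5.82 FPKM in mesoderm layers 7, 9 and 11, against 1.03, 1.32 and 0 FPKM in streak. Mesoderm was higher in 6 of 7 pairs, with a log2 difference of 1.44 ± 0.50 that did not pass (adjusted p = 0.0604).

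Without homozygous streak layer 11 the difference of Krt18 was 1.91 (adjusted p = 0.025), without heterozygous mesoderm layer 9 it was 1.72 (0.0464), and without the layer 1 sections and the layer term it was 1.41 (0.0385), each past the threshold. Plet1 was higher in mesoderm in 6 of 7 pairs too, with a difference of 0.98 ± 0.32 (adjusted p = 0.0509). It passed without homozygous streak layer 1, 5 or 11 or homozygous mesoderm layer 11 (adjusted p = 0.0311 to 0.0481). With each of the 19 sections left out in turn, Krt18 still did not pass in 17 fits and Plet1 in 15. Over the other alternatives Krt18 ran from 0.72 to 2.10 (limma, adjusted p = 0.0385 to 0.417). Plet1 ran from 0.43 to 2.52 (limma, adjusted p = 0.0332 to 0.546), and did not reach the filter without the layer 1 sections. Krt19 had a difference of 0.0055 ± 0.29 (adjusted p = 0.992).

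**Figure D4:**
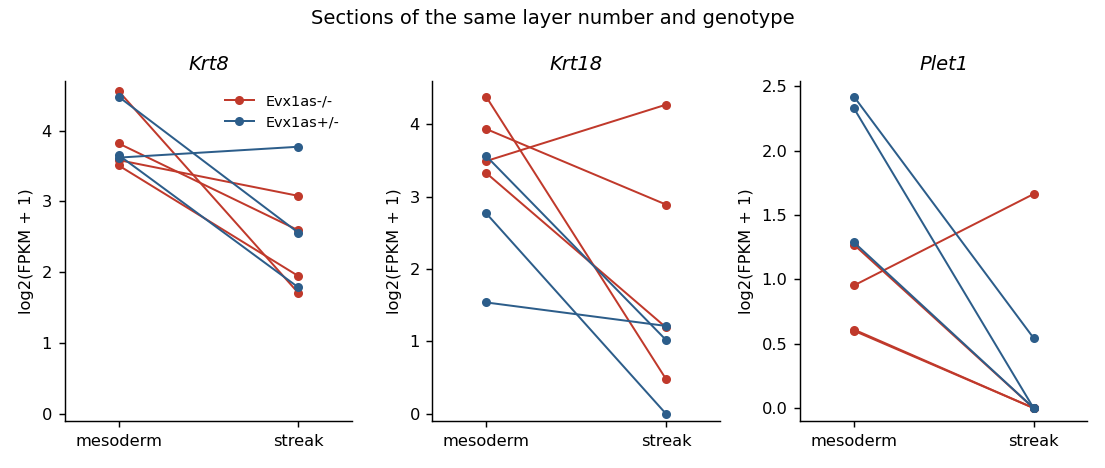
Krt8, Krt18 and Plet1 on the log2(FPKM + 1) scale in mesoderm (left) and streak (right) sections joined by layer number and genotype, 4 homozygous pairs in red and 3 heterozygous pairs in blue. Lines fall to the right in 6 of 7 pairs for each gene, and the exception is heterozygous layer 11 for Krt8 and homozygous layer 11 for Krt18 and Plet1.

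Visceral endoderm is the epithelium that covers the embryo, and it too holds KRT8 and KRT18. Its 20 markers summed to more in mesoderm than in streak in 5 of the 7 pairs, and to less in layer 11 of both genotypes, at 82.5 FPKM in mesoderm against 1323 FPKM in streak of homozygous embryos and 30.4 FPKM in mesoderm against 53.3 FPKM in streak of heterozygous embryos. The pairs in which Krt8, Krt18 or Plet1 was not higher in mesoderm were among these layer 11 pairs, but each gene was higher in mesoderm in the other of them. Krt8 was at 11.0 FPKM in mesoderm against 7.45 FPKM in streak of homozygous embryos. In heterozygous embryos Krt18 was at 5.82 against 0 FPKM and Plet1 at 4.35 against 0.458 FPKM. Over all sections the sums were 82.5 to 854 FPKM in homozygous and 30.4 to 94.3 FPKM in heterozygous mesoderm, and 5.13 to 1323 FPKM in homozygous and 12.7 to 175 FPKM in heterozygous streak, with Apoa1 and Spink3 among the highest. Afp, a defining marker, was at 0 in all heterozygous mesoderm sections and at 0.0707 to 5.16 FPKM in homozygous ones. None of the 11 tested markers differed between regions past the threshold, and their part in the keratin values was not tested.

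**Figure D5:**
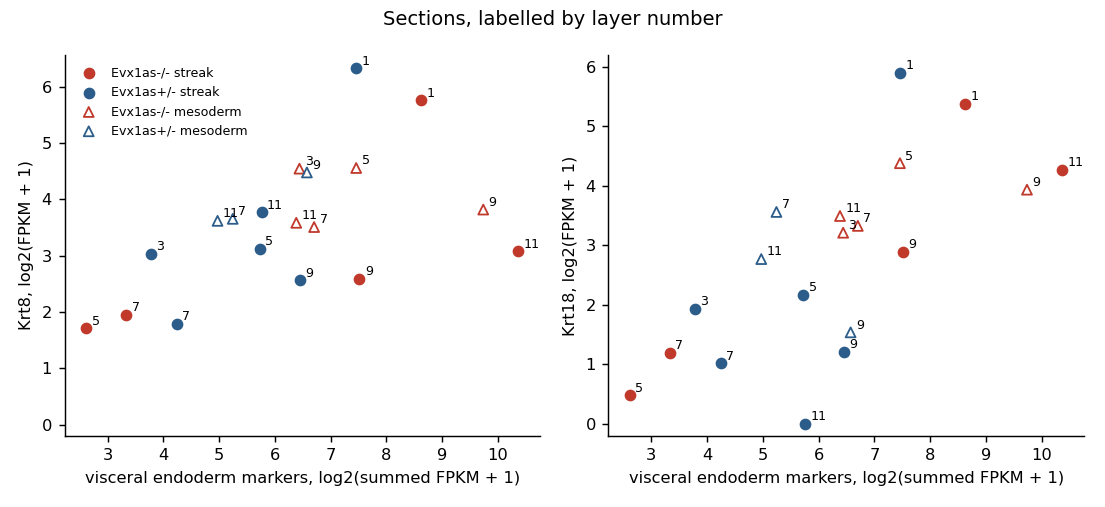
Krt8 (left) and Krt18 (right) against the summed FPKM of visceral endoderm markers, both on log2(value + 1) axes, 1 section a point with its layer number, homozygous in red, heterozygous in blue, mesoderm as open triangles and streak as circles. Layer 1 streak sections lie at the top in both panels, and homozygous streak layer 11 and mesoderm layer 9 lie farthest right, at 1323 and 854 FPKM.

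Of the lists in the comparison of regions, 12 trophoblast regulators were tested: Hand1, also a gene of extraembryonic mesoderm, rose by 1.55 in mesoderm against streak, while Cdx2, Eomes and Ezr fell by 1.68, 1.35 and 1.15. Of 6 trophoblast products, Hand1 and Phlda2 rose (1.55 and 1.16) and Epcam and Ly6e fell by 1.33 and 1.24. Of 5 keratin partners and linkers, 1 fell, the claudin gene Cldn7, by 1.24. No cornified envelope gene reached the filter, and the calls between regions rest on sections that may share an embryo, so their p-values are too small.

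Prolactin-family genes, listed at 0 in the cultures, were above 0 in some sections and are described here after their values were seen. Prl3d1, a product of giant cells, was listed at 0 in all 5 homozygous streak sections and was above 0 in 5 of 6 heterozygous ones, up to 7.47 FPKM. It reached 1.69 FPKM in homozygous mesoderm and was at 0 in all 3 heterozygous mesoderm sections. Prl2c3 reached 0.486 FPKM in homozygous and 4.70 FPKM in heterozygous streak, and Prl7a1 1.89 FPKM in homozygous and 2.99 FPKM in heterozygous streak. Prl3d and Prl2c genes have near-identical copies, so the level of each is uncertain. The part of such transcripts in the values of the 9 genes was not tested.

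Between genotypes, none of the members that reached the filter, 4 in streak and 3 in mesoderm, passed the test. In the streak, in fits with no layer term, Krt8 averaged 14.2 ± 21.9 FPKM in homozygous and 19.1 ± 29.8 FPKM in heterozygous sections (SD, n = 5 and 6), with a log2 difference of -0.42 ± 0.78 (limma, adjusted p = 0.894). Krt18 differed by 0.80 ± 0.99 (adjusted p = 0.833), Krt19 by -0.44 ± 0.65 (adjusted p = 0.863) and Plet1 by -0.09 ± 0.77 (adjusted p = 0.981). These standard errors were larger than the differences for Krt8, Krt18, Krt19 and Plet1. An unadjusted p under 0.05 was found for 0 of the 4, against 697 of the 9932 genes tested, and 0.0101% of all genes were called after adjustment. The p-values, here and for mesoderm, are too small where sections share an embryo.

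In mesoderm Krt8 was at 22.4, 22.6, 10.4, 13.1 and 11.0 FPKM in homozygous layers 3 to 11 and at 11.6, 21.3 and 11.3 FPKM in heterozygous layers 7, 9 and 11, and the groups overlapped. The difference was 0.09 ± 0.38 (limma, adjusted p = 0.937, n = 5 and 3), and its sign turned after median-ratio scaling (-0.25) and with layer as a block (-0.28). Krt18 averaged 12.3 ± 4.79 FPKM in homozygous and 6.18 ± 4.46 FPKM in heterozygous mesoderm, with overlap, and differed by 1.05 ± 0.46 (adjusted p = 0.28).

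Plet1 separated the genotypes in mesoderm without passing the test. It was at 0, 0.516, 0.526, 1.41 and 0.935 FPKM in homozygous layers 3, 5, 7, 9 and 11 and at 1.44, 4.02 and 4.35 FPKM in heterozygous layers 7, 9 and 11, so that every homozygous section lay below every heterozygous one. Such a separation was found for 9.66% of the genes tested, and with lower homozygous values for 1.06%; the difference was -1.33 ± 0.42 (limma, adjusted p = 0.162), and 0.69% of genes were called in either direction. The highest homozygous and the lowest heterozygous value, 1.41 and 1.44 FPKM, differ by less than the width of the authors' deposited intervals, 0.652 to 2.17 FPKM and 0 to 3.97 FPKM.

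Over both regions Krt8 differed between homozygous and heterozygous sections by -0.29 ± 0.26, Krt18 by 0.83 ± 0.47, Krt19 by -0.22 ± 0.27 and Plet1 by -0.62 ± 0.30 (n = 10 and 9, limma, adjusted p = 0.537, 0.333, 0.677 and 0.265), with p too small where embryos are shared, and 1.26% of genes were called. In sections matched for layer and region Krt8 was lower in 6 of 8 pairs, Krt18 higher in 5 of 8, and Plet1 lower in 4 and higher in 1, the rest being at 0 in both. Krt19 was lower in 4 and higher in 2. Krt7 and Gata3, which did not reach the filter, were higher in 6 and 5 pairs and lower in 1 each. Gata3 was at 0 in 3 of 10 homozygous and 7 of 9 heterozygous streak and mesoderm sections, and under 1 FPKM in all. Whether the genotype difference itself differed between mesoderm and streak was tested for the same 4 members, and none passed (adjusted p = 1.00 each); no gene of the 9527 did, though 450 had an unadjusted p under 0.05. The median of all genes lay at 0.22 in streak, 0.30 in mesoderm, 0.24 over both regions and 0.11 in the test of the difference. The share of FPKM from the mitochondrial genome was 2.03% to 3.21% in homozygous and 3.38% to 5.53% in heterozygous sections, with no overlap. In mesoderm, 8420 to 9403 genes reached 1 FPKM in homozygous and 7025 to 8057 genes in heterozygous sections, again with no overlap. A single gene, Yam1, took 7.32% to 22.2% of FPKM in homozygous and 1.07% to 33.1% in heterozygous mesoderm. The part of these library measures in the genotype values was not tested.

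Of the lists, no gene was called between genotypes in the streak. In mesoderm, 2 of 11 tested trophoblast regulators rose in homozygous sections, Eomes at 20.8 ± 3.62 FPKM in homozygous and 3.69 ± 2.58 FPKM in heterozygous sections (limma, adjusted p = 0.0355) and the membrane linker Ezr at 6.11 ± 1.56 FPKM in homozygous and 0.856 ± 1.25 FPKM in heterozygous sections (adjusted p = 0.0478), p-values that are too small where embryos are shared, and no keratin partner, trophoblast product or other keratin was called.

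The anterior epiblast, which lies opposite the streak, had 1 section per genotype and so no replicate check. Krt8 was at 1.25 FPKM in the homozygous and 3.41 FPKM in the heterozygous section, and 1.25 FPKM was the lowest Krt8 value of all assigned sections. Krt18 was at 7.04 FPKM in the homozygous and 1.52 FPKM in the heterozygous section. Plet1 was at 0.238 FPKM in the homozygous and 1.15 FPKM in the heterozygous section, while Krt7 and Krt19 did not pass 0.172 FPKM in either. Gata3 was at 0.5005 FPKM and Elf5 at 0.0579 FPKM in the homozygous section and both at 0 in the heterozygous one.

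By mean level over groups, Krt8 was ordered as wild-type culture, knock-in culture, then streak and mesoderm of both genotypes, then anterior epiblast. Streak and mesoderm means of 14.2 to 19.1 FPKM lay within the spread of each other. The cultures and sections were made by different protocols and their tables were normalized separately, so the gap between 116 ± 16.1 FPKM in knock-in cultures and the section values is set across methods.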

How the data were processed

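Gene tables in FPKM, 1 per library, were deposited by the authors in the column format of Cufflinks, with an interval for each value. The submitters' processing notes name CASAVA, TopHat2 2.0.11 and mm10. Depth and the sharing of multiply matched reads are not given in the sources used here. Values of an identifier listed repeatedly were added and values below 1e-06 set to 0. Per the labels' protocols, culture mRNA was bead-selected and sections went through Geo-seq.

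Genes averaging at least 1 FPKM over the libraries compared were fitted as log2(FPKM + 1) with limma 3.58.1 (R 4.3.3), letting the prior variance follow the mean. Tests were two-sided, with p adjusted by Benjamini-Hochberg over all genes and called at 0.05. Genotype fits within a region had no covariate; fits over both regions held genotype, region and layer as a factor, and the slope fit held layer as a number. Whether cultures of a line were grown separately is not given, so p-values measure the spread between libraries, which may be technical. Replicate numbers did not pair cultures (r = -0.12, -0.05 and -0.05 for equal numbers).

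The 9 genes and the 11 gene lists were chosen with earlier results of these data known. Which comparison led to the choice is not recorded, so culture and layer values count as used. Named list genes are up to 4 per list and comparison with the largest change past the threshold. Alternatives were a pseudocount of 0.1, no filter, median-ratio scaling, blocks, the layer term left out, layer 1 left out and each library left out.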

Additional observations from a re-analysis of the deposited data

Results flagged for a closer look

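In 17 groups checked, 1 section stood far from the others of its group 11 times. Only groups whose highest value reached 1 FPKM were checked, and layer values may have led to the choice of the genes. No rate expected by chance is therefore set beside the flags, which are a description. Of these, 8 were streak layer 1: Krt7 at 3.80 FPKM in homozygous and 2.20 FPKM in heterozygous streak, Krt8 at 53.2 FPKM in homozygous and 79.5 FPKM in heterozygous streak, Krt19 at 5.06 FPKM in homozygous and 10.3 FPKM in heterozygous streak, and Krt18 at 58.7 FPKM and Plet1 at 21.3 FPKM in heterozygous streak. The 3 others were Sprr2a2 at 1.77 FPKM and Sprr2a3 at 2.31 FPKM in homozygous streak layer 11 and Sprr2a2 at 1.42 FPKM in homozygous mesoderm layer 9.

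Outside the comparisons, Sprr2a3 was at 2.34 FPKM in 1 heterozygous section whose region labels disagree, against at most 0.0519 FPKM in the heterozygous streak and mesoderm sections. Gata3 was at 0.5005 FPKM in the homozygous anterior epiblast section, against at most 0.231 FPKM in the heterozygous streak and mesoderm sections. It lay within the range of homozygous streak and mesoderm sections, which reached 0.573 FPKM in streak and 0.652 FPKM in mesoderm.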

How the results depend on the processing

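In the cultures 7 members were called under every alternative run, the fit with replicate block included (7), and leaving out 1 library gave 7 throughout. In the 3 comparisons of genotype 0 members were called under every alternative run. Between mesoderm and streak 1 member was called, and 2 with a pseudocount of 0.1 (Krt8 and Plet1), 0 with the layer term left out, 2 without layer 1 sections and layer term (Krt8 and Krt18) and 1 to 3 when each section was left out in turn.

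Signs turned, with no call, for Plet1 in the cultures without 1 library (-0.32 to 0.12), Krt8 in the streak without 1 section (-1.10 to 0.16, positive without heterozygous layer 1) and Plet1 there without 1 section (-0.48 to 0.11). Krt8 in mesoderm was -0.25 after scaling, -0.28 with a layer block and -0.063 to 0.37 without 1 section. Krt19 between regions was -0.46 with the layer term left out and -0.11 to 0.19 without 1 section. The Krt18 difference of differences was -0.034 with a pseudocount of 0.1 and -0.48 to 1.09 without 1 section. The Krt18 slope was 0.015 without layer 1 and the Plet1 slope -0.14 to 0.037 without 1 section. The cause was not tested. With no counts, the depth behind values near 0 is unknown. Between genotypes, differences as large as -1.33 (Plet1 in mesoderm) did not pass the threshold.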

Other observations

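Among the trophoblast products, Phlda2, an imprinted gene that restrains placental growth, rose with layer number by 0.61 ± 0.06 log2 units per layer (± SE, n = 19, limma, adjusted p = 1.12e-05). It ran from 13.9 to 1341 FPKM in homozygous and 168 to 1339.9 FPKM in heterozygous mesoderm, from 13.2 to 352 FPKM in homozygous and 4.27 to 581 FPKM in heterozygous streak, and was at 5.40 and 5.55 FPKM in homozygous and heterozygous anterior epiblast. Sections may share an embryo, so the p is too small. The splicing regulator of epithelia, Esrp1, fell by 0.22 per layer (adjusted p = 0.017). Both were singled out as the genes of the trophoblast and linker lists past the threshold.

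In the 3 sections whose title and region label disagree, Krt8 was at 5.92 FPKM in the homozygous 1 and at 13.2 and 18.9 FPKM in the heterozygous ones. Krt18 was at 5.54 FPKM in the homozygous and at 3.73 and 7.24 FPKM in the heterozygous sections. Plet1 was at 0 in the homozygous and at 1.29 and 1.11 FPKM in the heterozygous sections.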
